A study of Mus musculus with 7 samples.

Results

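The tumor necrosis factor (TNF) superfamily was examined in cancer-associated fibroblasts (CAFs) as 34 genes of the 12771 listed in the count table. The 34 are the table's symbols that begin with Tnfrsf, Tnfsf or Traf followed by a digit, together with Tnf, Ltbr, Cd40, Fas and Ngfr. Of the 8 symbols chosen by name, Lta, Ltb and Cd70 were not analysed here. The rule itself uses no measured value, but it was chosen with earlier results of these data known. By role the members are 8 ligands, 15 signaling receptors, 3 decoy receptors, 6 TRAF adaptors and the TRAF3-interacting proteins Traf3ip1 and Traf3ip2, which carry the name but are not TRAFs.

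Ligands of this family are mostly trimers anchored in the membrane, and many can be cut off by metalloproteases to act at a distance. Their receptors pass the signal on through TRAF adaptors, which switch on NF-κB and stress kinases, or through death domains, which can start apoptosis or necroptosis. In tumor stroma the family links fibroblasts with T cells, B cells, macrophages and bone-resorbing cells, and TNF receptor 1 on fibroblasts is a well known inducer of cytokines and chemokines.

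Both groups were male C57BL/6 mice (C57BL/6 J in the study's methods), injected at 8 weeks of age into the pancreas with KPC cells, a mouse pancreatic cancer line. In one group the cells carried a non-targeting hairpin (shControl, labelled NT, 3 mice) and in the other a hairpin against Brca2 (shBrca2, labelled BRCA, 4 mice); both hairpins were delivered in the lentiviral pLKO.1 vector with puromycin selection. The silenced gene was therefore in the cancer cells and not in the fibroblasts that were sequenced. Tumors were taken after 2 to 3 weeks, live podoplanin-positive cells lacking the leukocyte marker CD45, the endothelial marker CD31 and the epithelial marker EpCAM were sorted, and the 3' ends of their poly(A) RNA were sequenced by a MARS-seq variant, with 1 library per mouse.

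Total counts per library ran from 1898679 to 5990579, and the groups' ranges overlapped. All 7 fibroblast markers checked were detected in every library, and their summed level was 72524 to 76759 normalized counts in shControl and 60297 to 65412 in shBrca2, without overlap. Of the 7, the matrix genes Dcn and Lum were called lower and the others, Pdgfra, Pdgfrb, Pdpn, Col1a1 and Col1a2, were not called. One control library differed more from the other controls than they did from each other. Distances are root mean square log2 differences over 4625 genes with a mean above 100 normalized counts. shControl replicate 2 was 0.49 from replicate 1 and 0.47 from replicate 4, which were 0.40 from each other. From the shBrca2 libraries it was 0.45 (replicate 2) to 0.52 away, and shBrca2 replicates 2 and 3 were 0.46 apart. Members whose call changes without shControl replicate 2 are therefore given both ways. Other members that move without it are listed with the fits that leave out a library. Of the genes that work with the family, counted below, 8 were called lower with it and 7 without it. Among those genes only Birc3 is given both ways. Of the cell types that the sort was meant to remove, epithelial markers had a summed level of 360 to 1044 normalized counts in shControl and 1303 to 1861 in shBrca2 over 5 of 7 markers, nearly all of it Krt8, Krt18 and Krt19, which were called higher, while Cdh1 and Cldn7 were at 17.3 or below. Krt19 is also a mesothelial marker, and the 5 mesothelial markers summed to 811 to 2437 and 1959 to 2475. Myeloid markers summed to 176 to 223 and 311 to 418 over 7 of 14, but without Csf1r, which was called higher, to 73.4 to 89.5 and 34.5 to 178, with overlap; of the other 6, C1qa was called higher and Lyz2 had a log2 change of -0.26. The endothelial markers measured, Pecam1 and Kdr, summed to 38.4 to 104 and 74.3 to 107, most of it Kdr. Kdr had a log2 change of 0.51 ± 0.33 (SE) and was not called. Pecam1, which encodes CD31, was at 1.95 to 17.7 in shControl and 0 to 1.72 in shBrca2, without overlap. Its log2 change was -3.6 ± 1.22 (SE, DESeq2 adjusted p = 0.0311), but its mean of 3.87 was below the limit of 5 for a call. B and plasma cell markers were lower in shBrca2, at 26.6 to 91.4 in shControl and 0 to 12.8 in shBrca2 over 3 of 6. Of 14 T and NK cell markers, Cd2 alone was measured, at 8.54 to 21.4 and 4.3 to 10.5. In sorted bulk RNA, fewer cells of a type and less RNA per cell cannot be told apart.

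Of the 34 members, 5 were called, which is 14.7% of them. Of all genes tested, 9.04% were called. To be called, a gene needed an adjusted p (Benjamini-Hochberg) under 0.1 in the likelihood ratio test of DESeq2, a log2 fold change beyond 0.5 in either direction and more than 5 normalized counts on average. All 34 members received an adjusted p, and 33 passed the limit on the mean, Cd40 being the exception. The ligands Tnfsf12, Tnfsf13b and Tnfsf14 fell in shBrca2 CAFs (5.27% of all genes were called lower) and the receptors Tnfrsf9 and Tnfrsf19 rose (3.77% of all genes were called higher). No decoy receptor, TRAF or TRAF3-interacting protein was called. An unadjusted p under 0.05 was found for 12 of the 34, and for 17.7% of all genes. In 11 of 34 members (32.4%) all shBrca2 libraries lay on the same side of all controls, against 17.1% of all genes. The median log2 fold change was 0.17 over the members and 0.01 over all genes. By role it was -0.36 for the ligands, 0.47 for the signaling receptors, 0.52 for the decoy receptors and 0.02 for the TRAFs.

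**Figure D1:**
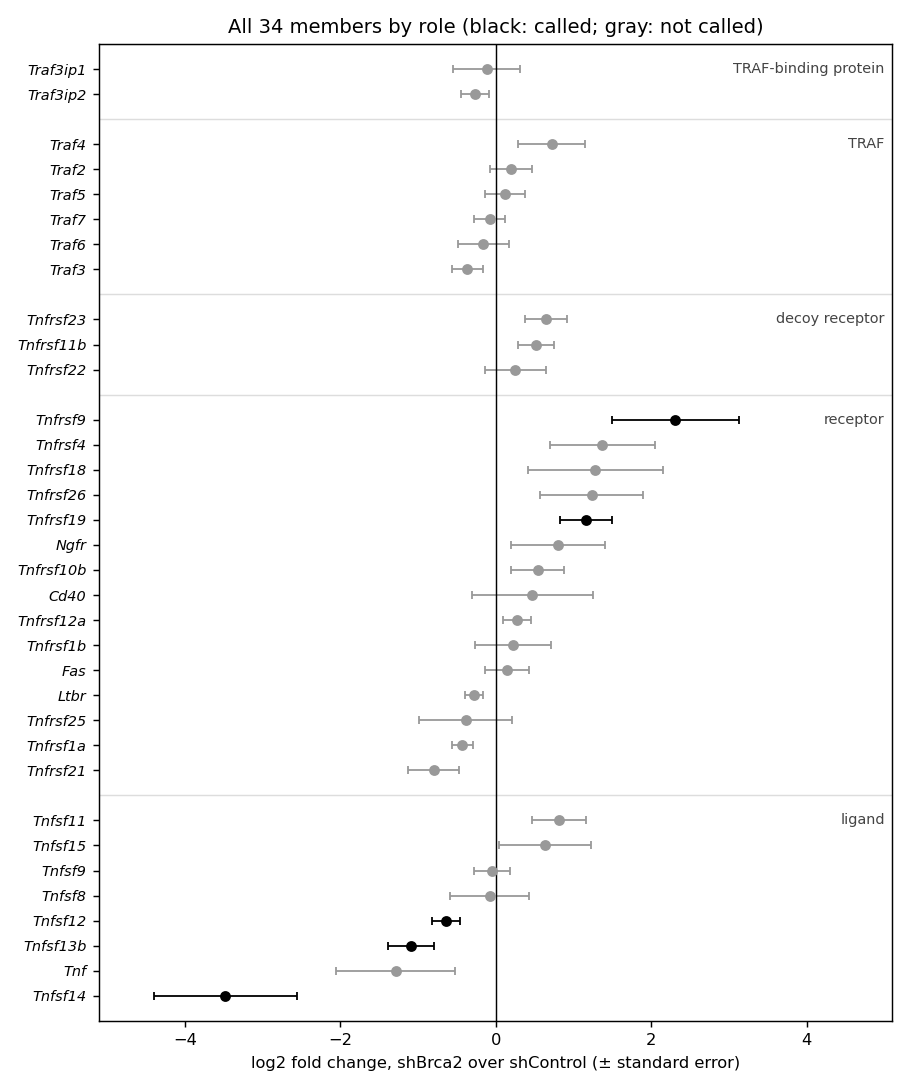
Log2 fold change of shBrca2 (n = 4) over shControl (n = 3) CAFs for the 34 members, grouped by role on the vertical axis. Points are DESeq2 estimates, bars are ± 1 standard error, black marks called members and gray the rest. The 3 called ligands lie left of 0 and the 2 called receptors right of it, and the 6 TRAFs lie between -0.37 and 0.72.

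The sequence upstream of the start is shown for the called members with the largest decrease and the largest increase, so that a reader can see what lies before each. Both are the 250 bases before the RefSeq start on GRCm38.p6, the sequence of the mm10 build named for these counts, written 5' to 3' on the gene's strand, at chr17:57194182-57194431 on the minus strand for Tnfsf14 and chr4:150919905-150920154 on the plus strand for Tnfrsf9. Capitals mark matches on either strand to AP-1 (TGANTCA), the hypoxia response core (ACGTG), a pair of HSF1 units (GAANNTTC) or the NF-κB consensus.
Tnfsf14: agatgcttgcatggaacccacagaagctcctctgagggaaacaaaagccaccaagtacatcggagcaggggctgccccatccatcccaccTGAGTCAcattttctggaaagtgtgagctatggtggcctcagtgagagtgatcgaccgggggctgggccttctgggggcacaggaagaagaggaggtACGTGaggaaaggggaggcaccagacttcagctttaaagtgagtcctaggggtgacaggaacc
Tnfrsf9: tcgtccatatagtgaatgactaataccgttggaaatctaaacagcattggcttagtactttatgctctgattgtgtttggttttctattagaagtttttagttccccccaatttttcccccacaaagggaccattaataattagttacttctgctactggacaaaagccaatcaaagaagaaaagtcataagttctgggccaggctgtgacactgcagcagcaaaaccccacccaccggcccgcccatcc
The Tnfsf14 window held the AP-1 letters 160 bases before the start and the hypoxia core 63 bases before it, with no overlap between them. The Tnfrsf9 window held none of the 4 motifs, and neither did those of Tnfsf13b and Tnfrsf19. The Tnfsf13b window (chr8:10006217-10006466) lies almost wholly inside the gene span, which begins at 10006229. It therefore does not show the bases before that start. Windows were found for 26 of the 34 members. The AP-1 letters were in 2 of the 26 (7.69%) and in 6.75% of all 32851 windows, the hypoxia core in 8 (30.8%) and 16.6%, the HSF1 pair in 2 (7.69%) and 6.69%, and the NF-κB consensus in 1 (3.85%) and 7.25%. These are counts of letters and do not show binding.

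The ligands that fell are taken first. Tnfsf13b encodes BAFF, the survival factor of B cells, which stromal and myeloid cells make. Here and in what follows, values are normalized counts (counts divided by the library's size factor), for shControl in the order of replicates 1, 2 and 4 and for shBrca2 in the order 1 to 4. Tnfsf13b stood at 91.4, 51.9 and 76.9 in the control mice, against 32.7, 42.5, 34.5 and 27.4 in the shBrca2 mice. Every shBrca2 library was below every control, and the narrowest gap was between shControl replicate 2 and shBrca2 replicate 2. The means were 73.4 ± 20 (SD, n = 3) and 34.3 ± 6.26 (SD, n = 4), a 2.13-fold decrease. Its log2 fold change was -1.09 ± 0.30 (SE, DESeq2 adjusted p = 0.00622). The gene lies on GRCm38 chromosome 8, 10006229 to 10036000, and shares no exon bases with another gene in GENCODE vM39. Tnfsf13b stayed called in 6 of the 7 fits that left out a library. Without shControl replicate 1 it stood at -0.91 on the log2 scale and was not called (DESeq2 adjusted p = 0.155). The summed B and plasma cell markers were lower in the same libraries, at 26.6 or more in shControl and 12.8 or less in shBrca2, with Jchain and Mzb1 called lower, while the myeloid sum was higher through Csf1r; their part in the Tnfsf13b result was not tested.

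Tnfsf14 encodes LIGHT, a ligand of the lymphotoxin β receptor and of HVEM that is best known from activated T cells and dendritic cells. Its raw counts were 19, 7 and 11 in shControl and 0, 4, 1 and 0 in shBrca2. In normalized counts this was 16.2, 8.86 and 10.7 against 0, 2.33, 1.73 and 0, so the groups were apart but every library was near the limit of detection. The log2 fold change was -3.48 ± 0.92 (SE, DESeq2 adjusted p = 0.00171), the largest in size among the members. With 5 reads in all over the 4 shBrca2 libraries, the size of the fold is poorly fixed, and it ran from -4.87 to -3.05 over the fits that left out a library. Without shControl replicate 1 or replicate 4 the gene was not called, because its mean normalized count was then 3.85 or 4.85, below the limit of 5; the adjusted p was 0.0782 and 0.0139. Cd2, the T and NK cell marker measured, had a log2 change of -0.92 ± 0.57 (SE, DESeq2 adjusted p = 0.427), and its part in the Tnfsf14 result was not tested. The gene lies on chromosome 17, 57189474 to 57194181, where 101 of its 1888 exon bases are shared with a predicted gene on the opposite strand. Whether the counting used strand is not given in the sources used here, so reads of genes that overlap on opposite strands may not have been told apart.

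Tnfsf12 encodes TWEAK, a cytokine that acts on fibroblasts and epithelium through the receptor Fn14. In the controls it stood at 720, 497 and 760 normalized counts, and in shBrca2 at 409, 446, 408 and 432. The 4 shBrca2 values lay close together and all below the controls, among which replicate 2 was the lowest. The means were 659 ± 142 (SD, n = 3) and 424 ± 18.7 (SD, n = 4), a 1.56-fold decrease with a log2 fold change of -0.64 ± 0.18 (SE, DESeq2 adjusted p = 0.0112). The call was lost without shControl replicate 1 (adjusted p = 0.134), shControl replicate 4 (0.162) or shBrca2 replicate 1 (0.103). The gene lies on chromosome 11, 69686240 to 69696098. There 980 of its 1872 exon bases belong also to Tnfsfm13, a read-through transcript into the neighboring APRIL gene on the same strand. How reads that fit both were counted is not given in the sources used here.

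Tnf itself was near the limit of detection. Its raw counts were 11, 6 and 7 in shControl and 3, 10, 0 and 3 in shBrca2, or 9.4, 7.59 and 6.81 against 2.58, 5.83, 0 and 3.05 normalized counts. All shBrca2 libraries were below all controls, but the log2 fold change of -1.29 ± 0.76 (SE) did not pass (DESeq2 adjusted p = 0.374). Tnfsf11, which encodes the osteoclast factor RANKL, had 53, 39.2 and 22.4 normalized counts in shControl and 78.3, 75.8, 36.3 and 75.2 in shBrca2. Its log2 fold change of 0.81 ± 0.35 (SE) did not pass (DESeq2 adjusted p = 0.172). Replicate 3 alone of the shBrca2 libraries lay within the control range, and without it Tnfsf11 was called (log2 fold change 0.99, DESeq2 adjusted p = 0.0438). It was also called without shControl replicate 1 (1.15, DESeq2 adjusted p = 0.0905). Tnfsf9, the ligand of Tnfrsf9, did not differ detectably, with 129 ± 30.8 (SD, n = 3) and 127 ± 21.1 normalized counts (SD, n = 4) and a 95% interval of the log2 fold change from -0.50 to 0.41. Tnfsf8, the CD30 ligand, had a log2 fold change of -0.08 ± 0.51 (SE). Tnfsf15, which encodes TL1A, a costimulator of T cells, had 0.63 ± 0.59 (SE). Both had at most 26 raw counts per library.

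Among receptors, Tnfrsf9 had the largest increase. It encodes 4-1BB (CD137), a costimulatory receptor of activated T and NK cells. It had 7.69, 45.5 and 5.84 normalized counts in shControl and 79.2, 86.8, 164 and 56.9 in shBrca2. All shBrca2 libraries lay above all controls, but shControl replicate 2 was far above the other controls and next below shBrca2 replicate 4. The means were 19.7 ± 22.4 (SD, n = 3) and 96.8 ± 46.6 (SD, n = 4). The log2 fold change was 2.31 ± 0.82 (SE, DESeq2 adjusted p = 0.094). Its 95% interval, from 0.70 to 3.92, was the widest of the called members other than Tnfsf14. This value moved with the library that was left out. Without shControl replicate 2 the log2 fold change was 3.81 (DESeq2 adjusted p = 2.2e-10), and without shControl replicate 1 or 4 it was 1.92 or 1.87 and was not called (DESeq2 adjusted p = 0.382 and 0.317). It was also not called without shBrca2 replicate 1, 2 or 4. The T and NK cell marker Cd2 was not higher in these libraries and had 8.54, 12.7 and 21.4 normalized counts in shControl and 4.3, 10.5, 10.4 and 5.08 in shBrca2. Krt8, Krt18 and Csf1r were higher in every shBrca2 library than in any control. In shControl, Csf1r had 102, 149 and 86.6 normalized counts. Of the shBrca2 libraries, replicate 3 had the highest Tnfrsf9 and also the highest Csf1r (276) and Krt19 (699). The same library had the lowest Krt8 (351), Krt18 (404) and sum of the other myeloid markers (34.5). The part of these markers in the Tnfrsf9 result was not tested. Tnfrsf9 lies on chromosome 4, 150920155 to 150946104, and shares no exon bases with another gene.

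The other costimulatory receptors of lymphocytes were near the limit of detection. Tnfrsf4, which encodes OX40, had 2.56, 6.33 and 4.86 normalized counts in shControl and 19.8, 5.83, 6.91 and 13.2 in shBrca2, with overlap at shBrca2 replicate 2 (log2 fold change 1.37 ± 0.68 SE, DESeq2 adjusted p = 0.267). Tnfrsf18, which encodes GITR, had 0, 6.33 and 2.92 against 10.3, 3.5, 8.64 and 6.1 (log2 fold change 1.28 ± 0.87 SE, DESeq2 adjusted p = 0.496). Tnfrsf25, the receptor of TL1A, had a log2 fold change of -0.39 ± 0.60 (SE), and Cd40 one of 0.47 ± 0.78 (SE). None of these 4 had more than 23 raw counts in a library, and none was called.

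Tnfrsf19 encodes TROY, an orphan receptor of embryonic and progenitor cells. It had 29.9, 44.3 and 30.2 normalized counts in shControl and 98.1, 43.7, 76 and 91.5 in shBrca2. In shBrca2, 3 libraries were above all controls and replicate 2 was within the control range, just below shControl replicate 2. The means were 34.8 ± 8.23 (SD, n = 3) and 77.3 ± 24.2 (SD, n = 4), a 2.23-fold increase with a log2 fold change of 1.16 ± 0.34 (SE, DESeq2 adjusted p = 0.0161). The call was lost without shControl replicate 1 (adjusted p = 0.127), shControl replicate 4 (0.105) or shBrca2 replicate 1 (0.126). Without shBrca2 replicate 2 the increase was 1.37 on the log2 scale (DESeq2 adjusted p = 6.8e-04). Tnfrsf19 lies on chromosome 14, 60963834 to 61046855, and 1113 of its 7453 exon bases are shared with predicted genes on the opposite strand.

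**Figure D2:**
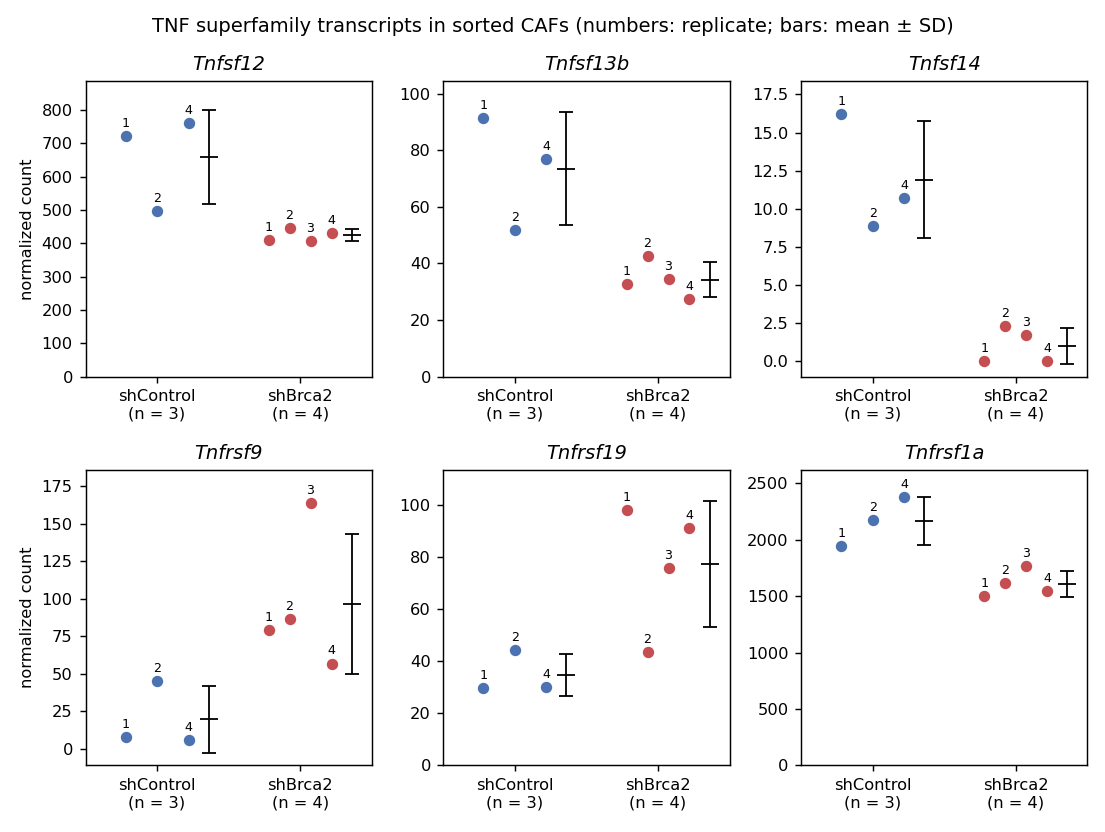
Normalized counts per library of the 5 called members and of Tnfrsf1a, with a vertical axis per gene. Each point is 1 mouse with its replicate number, and bars are mean ± SD of shControl (blue, n = 3) and shBrca2 (red, n = 4). The groups are apart in every panel but Tnfrsf19, where shBrca2 replicate 2 (43.7) lies below shControl replicate 2 (44.3), and shControl replicate 2 is the control nearest to shBrca2 in all panels but Tnfrsf1a.

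None of the receptors for TNF, lymphotoxin, TRAIL or Fas ligand was called. Tnfrsf1a, which encodes TNF receptor 1, had 1946, 2175 and 2376 normalized counts in shControl and 1504, 1617, 1765 and 1543 in shBrca2. The groups were apart, with means of 2165 ± 215 (SD, n = 3) and 1607 ± 115 (SD, n = 4). The DESeq2 adjusted p was 0.0325, under the limit, but the log2 fold change of -0.43 ± 0.14 (SE) was too small for a call at 0.5. The adjusted p was over 0.1 by edgeR (0.109) and in 5 of the 7 DESeq2 fits that left out a library, at 0.103 without shControl replicate 2, 0.335 without shControl replicate 4, and 0.31, 0.12 and 0.247 without shBrca2 replicates 1, 2 and 4. Of all genes, 9.79% had an adjusted p under 0.1 whatever the fold, and of the members these were the 5 called and Tnfrsf1a. Ltbr, the lymphotoxin β receptor that drives the noncanonical NF-κB pathway, had 1208, 1307 and 1225 against 1031, 958, 1076 and 1054 normalized counts. The groups were apart here too, with a log2 fold change of -0.28 ± 0.12 (SE, DESeq2 adjusted p = 0.191). Tnfrsf21, the death receptor DR6, had 52.1, 50.6 and 37.9 against 27.5, 32.6, 13.8 and 29.5, again without overlap (log2 fold change -0.80 ± 0.33 SE, DESeq2 adjusted p = 0.127). These 3 receptors were thus lower in every shBrca2 library than in any control, and none of them was called. The groups were apart in 5 of the 15 signaling receptors (33.3%), with Tnfrsf9 and Tnfrsf26 higher, beside 17.1% of all genes.

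Fas, the receptor of Fas ligand, had 64.1, 45.5 and 92.4 normalized counts in shControl and 85.2, 77.5, 72.5 and 63 in shBrca2, with full overlap (log2 fold change 0.14 ± 0.28 SE, DESeq2 adjusted p = 0.879). Tnfrsf10b, the death receptor of TRAIL, had a log2 fold change of 0.54 ± 0.34 (SE, DESeq2 adjusted p = 0.43). Tnfrsf12a, which encodes the TWEAK receptor Fn14, had 1367, 1875 and 1370 against 1694, 2234, 1710 and 1761. Its log2 fold change of 0.27 ± 0.18 (SE) did not pass (DESeq2 adjusted p = 0.493). All of its 1965 annotated exon bases overlap Hcfc1r1 on the opposite strand, and its counts are uncertain to that extent. Ngfr, the low-affinity neurotrophin receptor, ran from 5.84 to 18.8 in shControl and from 5.18 to 43.9 in shBrca2 (log2 fold change 0.80 ± 0.60 SE). Tnfrsf1b, which encodes TNF receptor 2, had at most 27 raw counts and a log2 fold change of 0.22 ± 0.49 (SE).

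Decoy receptors bind ligand without passing a signal on. Tnfrsf11b encodes osteoprotegerin, the secreted decoy of RANKL and TRAIL. It had 136, 129 and 143 normalized counts in shControl and 197, 244, 207 and 132 in shBrca2. Replicate 4 alone of the shBrca2 libraries lay within the control range (log2 fold change 0.52 ± 0.23 SE, DESeq2 adjusted p = 0.186), and without it Tnfrsf11b was called at 0.67 (DESeq2 adjusted p = 0.0623). Tnfrsf22 and Tnfrsf23 encode mouse decoys of TRAIL, and with Tnfrsf26 form a cluster of close copies on chromosome 7. Their reads may therefore not all have been told apart. Tnfrsf23 had 208, 348 and 160 normalized counts against 342, 485, 313 and 338. Replicate 2 of shControl was within the shBrca2 range, and without it the log2 fold change went from 0.64 (DESeq2 adjusted p = 0.167) to 1.01 (DESeq2 adjusted p = 0.00194) and the gene was called. Tnfrsf22 had a log2 fold change of 0.25 ± 0.39 (SE). Tnfrsf26 had no more than 15 raw counts in a library, was higher in every shBrca2 library than in any control, and had one of 1.23 ± 0.66 (SE, DESeq2 adjusted p = 0.312).

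TRAF adaptors showed no called member. Traf2, which recruits the cIAP ubiquitin ligases, had 81.1 ± 28.4 (SD, n = 3) and 92.7 ± 13.5 normalized counts (SD, n = 4) in shControl and shBrca2, with a 95% interval of the log2 fold change from -0.33 to 0.73. Traf3, the brake on the noncanonical pathway, had 120, 111 and 107 against 80, 96.2, 79.4 and 91.5. The groups were apart, but its log2 fold change of -0.37 ± 0.20 (SE) did not pass (DESeq2 adjusted p = 0.332). Traf5 and Traf6, the latter also used by interleukin-1 and Toll-like receptors, had log2 fold changes of 0.12 and -0.16 with standard errors of 0.26 and 0.33. Traf7 had -0.08 ± 0.20 (SE), and Traf4 had 0.72 ± 0.43 (SE, DESeq2 adjusted p = 0.406). Traf3ip2, the adaptor of the interleukin-17 receptor, was lower in every shBrca2 library than in any control (log2 fold change -0.27 ± 0.18 SE, DESeq2 adjusted p = 0.462). Traf3ip1, a cilium protein, had a log2 fold change of -0.12 ± 0.43 (SE). Traf3ip2 shares 2882 of 10196 exon bases with genes on the opposite strand. Traf7 shares 1700 of 7822 with Caskin1 on the opposite strand and Rab26 on the same strand. Traf1 was not analysed here.

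The calls changed when single libraries were left out. None of the 5 called members passed all limits without shControl replicate 1, where Tnfsf11 and Tnfrsf1a were called in their place. Tnfsf13b alone was called without shControl replicate 4, and Tnfsf13b and Tnfsf14 without shBrca2 replicate 1. The share of all genes called was also lower in these fits, at 5.13%, 6.55% and 4.82%. Whether the smaller number of libraries or the mouse left out set these losses was not tested. Without shControl replicate 2, 6 members were called, the 5 and Tnfrsf23, where 10.4% of all genes were. In that fit the groups did not overlap in 20 of 34 members (58.8%), against 32.2% of all genes. The log2 fold changes without it were -0.80 for Tnfsf12, -1.28 for Tnfsf13b, -3.67 for Tnfsf14 and 1.35 for Tnfrsf19, each further from 0 than with it. Of members not called in either fit, Tnfrsf18 went from 1.28 to 2.32, Traf4 from 0.72 to 1.20, Cd40 from 0.47 to 0.94 and Traf2 from 0.20 to 0.51, and Fas from 0.14 to -0.06. None of the 5 changed direction in any of the 7 fits.

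**Figure D3:**
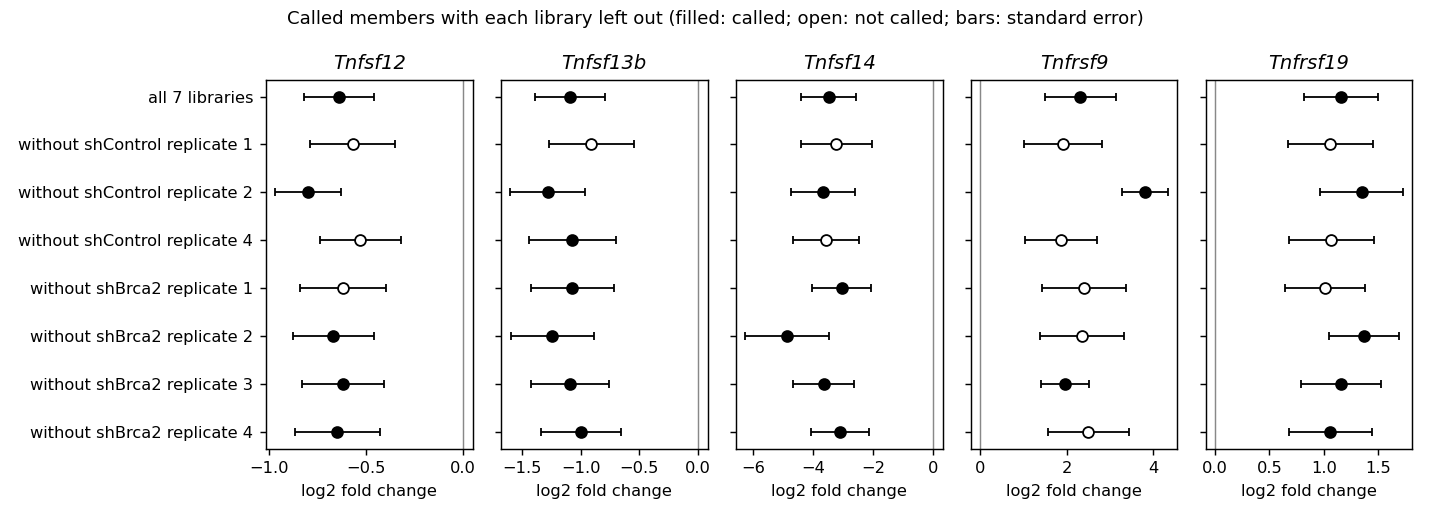
Log2 fold change (shBrca2 over shControl) of the 5 called members with all 7 libraries and with each library left out, 1 fit per line. Bars are ± 1 standard error, filled points were called and open points were not. Every point keeps the side of 0 it has with all libraries, and Tnfrsf9 moves from 2.31 to 3.81 without shControl replicate 2.

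Ligands and receptors that bind each other can be set side by side. TWEAK fell while its receptor Fn14 had a log2 fold change of 0.27 that did not pass. LIGHT fell, and its receptor Ltbr had -0.28 without a call. For 4-1BB the receptor rose and its ligand Tnfsf9 had a log2 fold change of -0.05. For RANKL and its decoy osteoprotegerin the log2 fold changes were 0.81 and 0.52, neither of them called.

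Genes that work with the family were then counted in a list of 89, of which 79 were in the table. Of the 79, 4 were called higher and 8 lower, in all 15.2%, beside the 9.04% of all genes. The list was chosen with earlier results of these data known. The difference in shares is therefore a description and was not tested. None of the 25 signaling adaptors and kinases was called, among them Ripk1 (log2 fold change -0.29 ± 0.26 SE), Casp8 (0.39 ± 0.19), Cflar (-0.13 ± 0.20) and Map3k14 (-0.30 ± 0.27). Casp8, the caspase that starts death receptor apoptosis, was higher in every shBrca2 library than in any control without passing (DESeq2 adjusted p = 0.224). Birc3, which encodes cIAP2, just missed the limit, with 188, 99.9 and 242 normalized counts against 86.1, 137, 109 and 72.2 (log2 fold change -0.81 ± 0.32 SE, DESeq2 adjusted p = 0.105), and it was called without shControl replicate 2 (-1.09, DESeq2 adjusted p = 0.00277) or shBrca2 replicate 2 (-1.01). None of 11 ubiquitin editors and brakes was called; Tnfaip3, which encodes A20, had a log2 fold change of 0.57 ± 0.27 (SE, DESeq2 adjusted p = 0.242). Of 11 NF-κB subunits and inhibitors, Bcl3 was called lower (log2 fold change -0.52 ± 0.20 SE, DESeq2 adjusted p = 0.0946) and Nfkbia was not (-0.32 ± 0.21 SE). Bcl3 was called in 3 of the 7 fits that left out a library.

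Response genes of TNF and NF-κB moved in both directions. Of 22 in the table, 6 were called lower and 2 higher, in all 36.4%, beside 9.04% of all genes. The limit given above for the whole list holds here too. Those called lower were the chemokine genes Cxcl1, Cxcl10 and Ccl7, the adhesion molecule Icam1, the protease Mmp3 and Csf1, the growth factor of macrophages. Csf1 had 1763, 2292 and 1837 normalized counts in shControl and 933, 1339, 826 and 1035 in shBrca2, with no overlap (log2 fold change -0.92 ± 0.20 SE, DESeq2 adjusted p = 2.3e-04). Mmp3 fell too (log2 fold change -1.18 ± 0.22 SE, DESeq2 adjusted p = 7.4e-06). Cxcl1, Cxcl10, Ccl7 and Icam1 fell by 1.10, 0.84, 0.85 and 0.76 on the log2 scale, each with overlap between the groups and each lost in at least 4 of the 7 fits that left out a library. Vcam1, an adhesion molecule for leukocytes, rose from 211, 185 and 202 to 449, 420, 342 and 356 normalized counts (log2 fold change 0.98 ± 0.17 SE, DESeq2 adjusted p = 5.2e-06). The chemokine Cxcl5 was called higher at 0.69 ± 0.26 (SE, DESeq2 adjusted p = 0.0952), and was called in 2 of the 7 fits. Csf1, Mmp3 and Vcam1 were called in all 7.

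Of 7 genes that cut ligands and receptors from the membrane or control the cut, 2 were called, both higher. This was 28.6% of them, beside 9.04% of all genes. Rhbdf2 encodes iRhom2, a partner that brings the TNF-cutting protease ADAM17 to the surface. It had 25.6, 55.7 and 48.6 normalized counts in shControl and 117, 109, 190 and 124 in shBrca2, with every shBrca2 library at least 109 (log2 fold change 1.64 ± 0.31 SE, DESeq2 adjusted p = 2.7e-05). Timp3, an inhibitor of ADAM17, rose from 1621, 2225 and 1529 to 4537, 3490, 4427 and 3631 normalized counts (log2 fold change 1.17 ± 0.19 SE, DESeq2 adjusted p = 3.9e-07). Both were called in all 7 fits that left out a library. Adam17 itself had 196, 219 and 207 against 190, 212, 173 and 174, a log2 fold change of -0.14 with a 95% interval from -0.47 to 0.20. Rhbdf1, Adam10, Sppl2a and Sppl2b were not called. Of the family genes whose symbols fall outside the chosen names, Eda, Eda2r and Relt were in the table. Eda, which encodes the ligand ectodysplasin, fell from 24.8, 31.6 and 27.2 to 14.6, 12.8, 8.64 and 10.2 normalized counts (log2 fold change -1.22 ± 0.40 SE, DESeq2 adjusted p = 0.0318), and was called in 1 of the 7 fits.

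**Figure D4:**
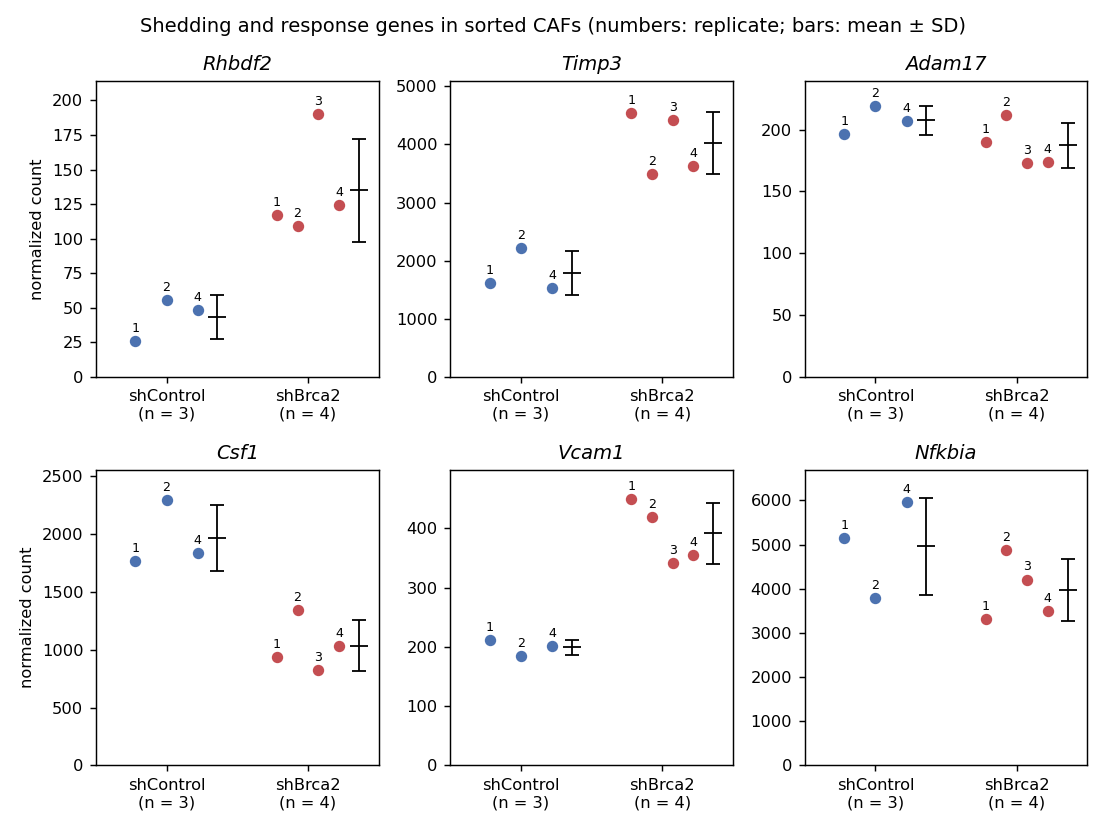
Normalized counts per library of 3 shedding genes (Rhbdf2, Timp3 and Adam17), of 2 called response genes (Csf1 and Vcam1) and of Nfkbia, with a vertical axis per gene. Each point is 1 mouse with its replicate number, and bars are mean ± SD of shControl (blue, n = 3) and shBrca2 (red, n = 4). Rhbdf2, Timp3 and Vcam1 are higher and Csf1 is lower in all 4 shBrca2 libraries, while the groups overlap for Adam17 and Nfkbia.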

How the data were processed

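RNA of sorted CAFs was measured in 7 libraries, 3 shControl (replicates 1, 2 and 4) and 4 shBrca2 (replicates 1 to 4), grouped by sample title. The authors deposited raw counts per gene symbol, not normalized, made per the labels with bcl2fastq, cutadapt, STAR 2.4.2a and HTSeq on mm10. Which annotation was used, whether strand was read and whether barcodes marking molecules were collapsed is not given in the sources used here, so PCR copies may be counted.

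Following the test the study used, a likelihood ratio test was run in DESeq2 1.42.0 (R 4.3.3), with its default size factors, on all 12771 genes without covariates. It gave a p for 12768. Normalized counts are counts divided by size factors, fold changes were not shrunken, and 95% intervals are ± 1.96 standard errors. The mice are separate animals. Alternatives were edgeR 4.0.16 (quasi-likelihood), TMM factors, the Wald test, a mean raw count of at least 10, no independent filtering or Cook's limit, an adjusted p under 0.05, the replicate number as a block, and each library left out. The code was tested on simulated counts.

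The members and lists were chosen with earlier results of these data known. Named were called members, members with an unadjusted p under 0.05, a fixed set of well-known members, Tnfrsf9, and pathway genes that were called or among 8 fixed ones; the other members were added to account for all 34. Rhbdf1, Adam10, Sppl2a, Sppl2b, Eda2r, Relt, Cd2 and the other cell markers were named after their values were seen. Positions and promoters come from RefSeq tables on GRCm38.p6, and shared exon bases from GENCODE vM39, whose GRCm39 build differs from that of the counts.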

Additional observations from a re-analysis of the deposited data

Results flagged for a closer look

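In the group of 4 shBrca2 libraries, a single library lay far from the other 3 for 4 of the 54 members and pathway genes examined; chance gives about 1 in 20 such groups. Tnfrsf12a was high in replicate 2 at 2234 normalized counts, against 1694 to 1761 in the others. Tnfrsf23 was also high in replicate 2, at 485 against 313 to 342. Tnfsf11 was low in replicate 3, at 36.3 against 75.2 to 78.3. Cd40 was high in replicate 4, at 9.15 against 3.45 to 4.3, on 9 raw counts. Without these libraries the log2 fold changes were 0.16 for Tnfrsf12a, 0.48 for Tnfrsf23, 0.99 for Tnfsf11 and 0.06 for Cd40, and of these Tnfsf11 alone was then called.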

How the results depend on the processing

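Of the 5 members called, all were called by edgeR (adjusted p 0.0186 to 0.0443), with TMM factors and with the Wald test. Tnfrsf9 was not called at an adjusted p under 0.05, which left 1 member called higher, and Tnfsf14 had no value under the filter on raw counts. Leaving out each library in turn gave 0 to 3 members called higher, 1 to 3 called lower and 2 to 12 pathway genes called lower. Of all genes, 4.82 to 10.4% were called in these fits. The groups did not overlap in 32.4 to 58.8% of members, beside 19.7 to 32.2% of all genes. Pathway genes called lower were 8 in the analysis reported, 4 by edgeR and 4 at an adjusted p under 0.05. Members not called changed sign when a library was left out, with log2 fold changes from -0.06 to 0.43 for Fas, -0.07 to 0.59 for Tnfrsf1b, -0.03 to 0.39 for Tnfrsf22, -0.31 to 0.27 for Tnfsf8, -0.17 to 0.17 for Tnfsf9, -0.24 to 0.13 for Traf3ip1 and -0.21 to 0.04 for Traf7. The cause of these changes was not tested. Members with few reads have wide intervals, and whether depth or the spread between mice sets them was not tested.

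Deviations of same-numbered libraries from their group means correlated at -0.07, -0.10 and -0.09 over 11632 genes. Differently numbered libraries correlated at -0.10 to 0.19. These values gave no sign that the replicate numbers pair the samples. Deviations from means of 3 and 4 libraries cannot settle it. With the replicate number as a block in DESeq2, which leaves shBrca2 replicate 3 without a partner, 1 member was called higher (Tnfrsf9, adjusted p = 0.00125) and 0 lower, 5 pathway genes were called lower, 5.01% of all genes were called, and the log2 fold change of Tnfsf8 was 0.10.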
